A study of Rattus norvegicus with 138 samples.

Results

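The choroid plexus marker genes are 8 genes, Ttr, Folr1, Kcnj13, Clic6, Enpp2, Kl, Otx2 and Sostdc1, chosen by their symbols because they mark choroid plexus epithelium. All 8 were found among the 32883 genes of each count table, 1 table for each of 3 brainstem regions. Their levels were followed library by library, by region, strain and age.

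The choroid plexus is a vascular tissue in the brain ventricles whose epithelium secretes cerebrospinal fluid and forms the barrier between blood and that fluid. The nucleus of the solitary tract (NTS), the first relay of the arterial pressure reflex, lies in the dorsal medulla beside the fourth ventricle and its choroid plexus, whereas the caudal and rostral ventrolateral medulla (CVLM and RVLM) lie near the ventral surface. Of the 8 genes, Ttr encodes transthyretin, a carrier of thyroid hormone that choroid plexus epithelium makes and secretes in great amount. Several others are also used outside this epithelium, Enpp2 in oligodendrocytes in particular.

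RNA was sequenced from tissue punches of the 3 regions in female rats of 2 strains obtained from Envigo, the spontaneously hypertensive rat (SHR/NHsd) and its normotensive control, the Wistar Kyoto rat (WKY/NHsd). No transgene or drug treatment is described for either strain, other than isoflurane before decapitation. Each rat gave 1 library per region, so 46 rats gave 3 libraries each. There were 18 WKY rats, 5 at 8 wk, 4 at 10 wk and 3 each at 12, 16 and 24 wk, and 28 SHRs, 5 each at 8 and 10 wk and 6 each at 12, 16 and 24 wk. The ages are those of different rats. A CVLM library of each strain, replicate 5 at 8 wk, is 8 wk old by its title and 10 wk old by its age label, and was placed at 8 wk. Libraries held 5904581 to 17889417 counts, with a median of 10143000, so that a gene without a single count in a library could be present at up to 0.508 CPM (counts-per-million) in the shallowest and 0.168 CPM in the deepest one, by counting error alone. CPM is not divided by gene length, so levels were compared between libraries for 1 gene and never between genes. In bulk tissue, fewer cells of a type and less RNA per cell cannot be told apart.

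The 250 bases before the start of 2 members are shown because their patterns in the strains differed. Kcnj13, an inwardly rectifying potassium channel subunit, was high in single WKY libraries of the NTS. Its NTS median was 0.110 CPM in WKY and 0.232 CPM in SHR. Kl, the anti-ageing membrane protein and FGF23 co-receptor klotho, was higher in SHRs in the CVLM and RVLM. Both sequences are from RefSeq on build GRCr8, which differs from the rn6 build of the count tables. They are written 5′ to 3′ on the strand of the gene. Capitals mark TAATC or its reverse complement GATTA, the core of the sequence that OTX2, a homeobox factor and a member of this group, is known to bind. Kcnj13 lies on the minus strand and its sequence covers chr9:95518987-95519236; Kl lies on the plus strand and its sequence covers chr12:5325753-5326002.
Kcnj13: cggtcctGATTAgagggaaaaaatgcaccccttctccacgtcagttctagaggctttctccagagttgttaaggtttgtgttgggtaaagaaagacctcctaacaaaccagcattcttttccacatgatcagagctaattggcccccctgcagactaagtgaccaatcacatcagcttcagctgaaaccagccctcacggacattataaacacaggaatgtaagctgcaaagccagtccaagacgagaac
Kl: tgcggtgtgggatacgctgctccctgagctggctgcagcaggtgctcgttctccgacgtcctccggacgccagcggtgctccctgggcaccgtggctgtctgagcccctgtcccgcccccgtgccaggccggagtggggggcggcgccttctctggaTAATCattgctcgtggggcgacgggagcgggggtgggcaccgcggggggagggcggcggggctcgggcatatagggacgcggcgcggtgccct
A promoter was given for 3 of the 8 members, and each of the 3 held the motif on 1 of the strands. Its first base lay 243 bases before the start of Kcnj13, 93 before that of Kl, and 77 and 12 before that of Ttr. In all 33469 promoters of this length, 20.5% held it. The longer form TAATCC or GGATTA was in none of the 3 and in 6.34% of all promoters. A match is only a run of letters in these windows.

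Ttr was near 0 in most NTS libraries and very high in 5 of them, all from WKY rats. At 8 wk the 5 WKY libraries held 1.67, 235, 0.901, 0.95 and 1907 CPM of Ttr, and at 10 wk the 4 WKY libraries held 0.678, 1.38, 1.11 and 93.7 CPM. At 12 wk the 3 WKY libraries held 0.341, 4437 and 802 CPM. The high ones were replicates 2 and 5 at 8 wk, replicate 4 at 10 wk and replicates 2 and 3 at 12 wk, and no library of 16 or 24 wk resembled them. At 16 wk WKY libraries held 1.35, 0.280 and 6.35 CPM and at 24 wk 2.0, 0.980 and 1.16 CPM. Over the 28 SHRs the lowest Ttr level was 0, the median 0.164 and the highest 2.47 CPM, and 9 libraries had no count. By age, SHR libraries held 2.47, 0.623, 0, 0.327 and 0.117 CPM at 8 wk and 0.444, 0, 0, 1.34 and 0 CPM at 10 wk. SHR levels ran up to 0.408 CPM at 12 wk, 1.28 CPM at 16 and 0.587 CPM at 24 wk. The strains overlapped at every age except 24 wk, where all SHR levels lay below all WKY levels. The same held for 1.6% of all 32883 genes, including those without counts.

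Ttr counts in these 5 libraries were large enough that counting error plays little part. In order of level, replicate 2 at 12 wk had 52201 counts or 0.470% of its library, replicate 5 at 8 wk 18676 or 0.174%, replicate 3 at 12 wk 8071 or 0.0845%, replicate 2 at 8 wk 2622 or 0.0252%, and replicate 4 at 10 wk 1666 or 0.00938%. The 5 libraries are named here one by one after their Ttr levels were seen and are not a group of the study. The edgeR tests of genes that passed the expression filter were also run without these 5 rats, which leaves 13 WKY rats, 3 each at 8, 10, 16 and 24 wk and 1 at 12 wk.

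**Figure D1:**
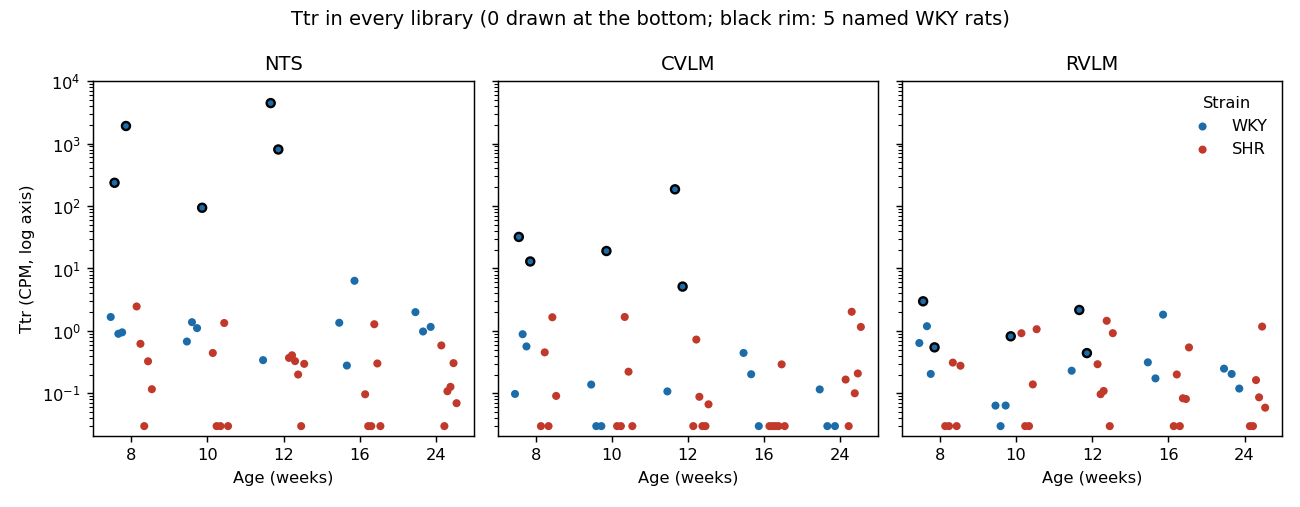
Ttr in CPM on a log axis in every library, by age in weeks, region and strain, with libraries at 0 drawn at the bottom edge and the 5 named WKY rats rimmed in black. In the NTS these 5 reach 93.7 to 4437 CPM against at most 2.47 CPM in SHRs, and the same rats hold the 5 highest levels in the CVLM.

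RNA of Sostdc1, Kcnj13 and Clic6, and in part that of Folr1, was also high in these 5 libraries. For Sostdc1, a secreted inhibitor of BMP and Wnt signalling, the NTS libraries in the order of their Ttr level held 46.2, 28.9, 4.57, 3.41 and 2.70 CPM, and no other NTS library exceeded 0.543 CPM. Kcnj13 stood at 73.0, 47.8, 12.7, 5.74 and 3.94 CPM in them and at no more than 1.23 CPM elsewhere. Both genes ranked the 5 libraries exactly as Ttr did. Clic6, a chloride intracellular channel family member, was at 25.8, 25.2, 7.46, 3.41 and 7.87 CPM in the same order, all above the highest other level of 2.75 CPM. Folr1, the folate receptor that carries folate into cerebrospinal fluid, was at 36.6, 19.4, 8.95, 3.59 and 5.74 CPM, of which 3 exceeded the highest other level, 6.94 CPM in replicate 1 of WKY at 12 wk.

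Enpp2 and Kl separated the 5 libraries less well, and Otx2 had low counts. Enpp2, which encodes the secreted enzyme autotaxin that makes lysophosphatidic acid, was at 603, 629, 212, 218 and 273 CPM, with only the first 2 above the highest other level of 357 CPM. Kl was at 8.25, 4.80, 2.29, 2.06 and 2.19 CPM, again with 2 above the highest other level of 3.93 CPM. Otx2 was at 1.57, 1.02, 0, 0.179 and 0.112 CPM and had no count in 14 of 18 WKY and 24 of 28 SHR libraries of the NTS. Its level exceeded the highest other one, 0.142 CPM, in 3 of the 5 libraries. Otx2 had 18.5 and 10 counts in the first 2 of them, and elsewhere in the NTS it was near the limit of detection.

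**Figure D2:**
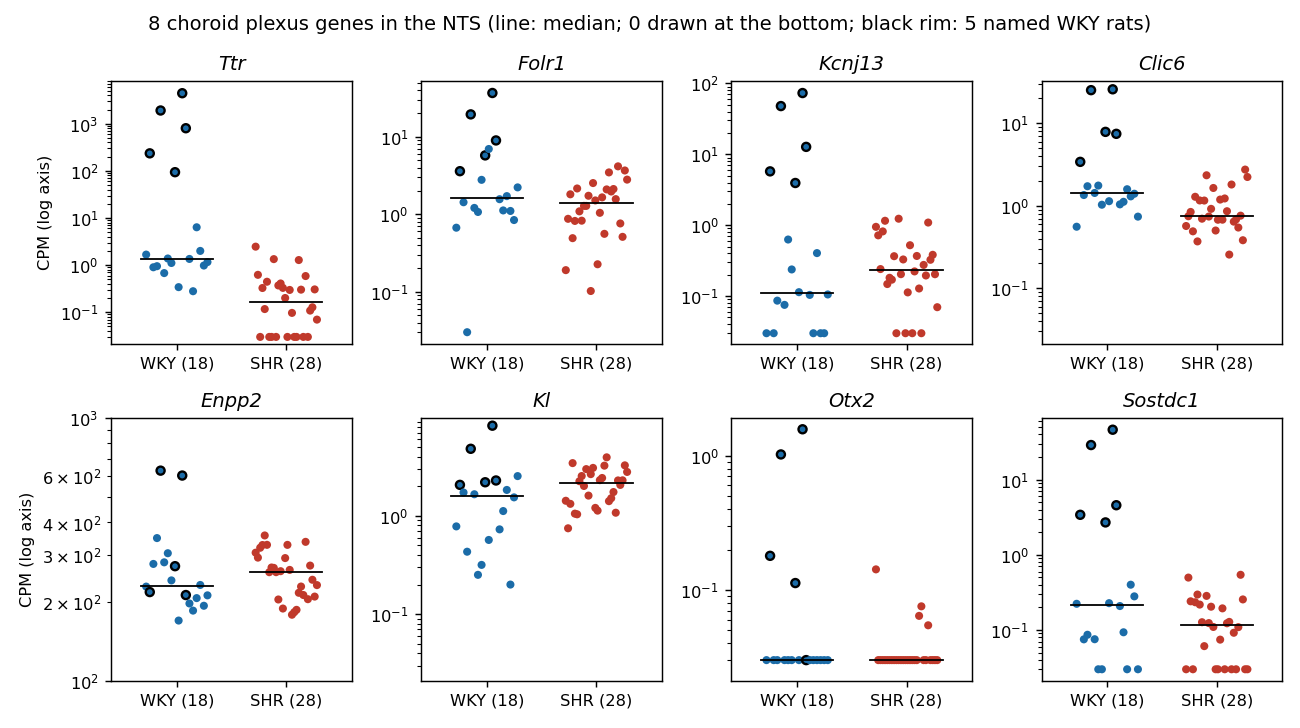
The 8 genes in all 46 NTS libraries in CPM on log axes, WKY in blue and SHR in red, with the median as a line, libraries at 0 at the bottom edge and the 5 named WKY rats rimmed in black. Ttr, Kcnj13, Sostdc1 and Clic6 lie above all other libraries in each of the 5, whereas Enpp2 and Kl do so in 2 of them.

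Differences between the strains were tested with edgeR's quasi-likelihood test over all genes whose largest rlog value in a region was at least 3.5, with Benjamini-Hochberg adjusted p-values called under 0.05. In the NTS 13793 genes passed, among them 7 of the 8 members, Otx2 being the exception. Ttr, Kcnj13 and Sostdc1 pass through the high WKY libraries, so that the counts of members called in the NTS describe those libraries and were not read as evidence on the group. At 8 wk 4 members were lower in SHRs, where 5.79% of all genes were called and 3.21% were called lower. The log2 fold changes of SHR over WKY (± SE) were −9.06 ± 1.86 for Ttr (adjusted p = 0.0013), −4.98 ± 1.33 for Sostdc1 (adjusted p = 0.020), −3.0 ± 0.79 for Clic6 (adjusted p = 0.018) and −3.74 ± 1.16 for Kcnj13 (adjusted p = 0.049). In the 41 other rats the first 3 of these were −0.60, 0.64 and −0.63 and were not called, at a background of 3.71%. For Kcnj13 the sign turned, to 4.27 ± 1.2 (adjusted p = 0.035), against 3 WKY libraries that together held 1 count of the gene. The ratio of summed levels there was 26.9 with a 95% counting interval of 4.50 to 1094. The rats left out hold the 5 highest NTS levels of Kcnj13, so its turn of sign is tied to their choice. It was not read as a result about the strains.

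Single rats carried some of these calls at 8 wk. Leaving out replicate 5 of WKY gave −2.20 for Sostdc1 (adjusted p = 0.30) and −1.13 for Clic6 (adjusted p = 0.32). Without replicate 1 of SHR, adjusted p was 0.062 for Sostdc1 and 0.056 for Clic6, and without replicate 3 of SHR it was 0.055 for Sostdc1. The call of Kcnj13 was lost on leaving out 31 of the 46 rats in turn, while that of Ttr was kept on leaving out any 1 rat. With limma, which gave each library a quality weight, none of the 4 was called at 8 wk and 0 members had an unadjusted p under 0.05, with Ttr at −4.34 (adjusted p = 0.59) and Clic6 at −1.66 (adjusted p = 0.22), while DESeq2 called 5 members. The library names end in a number, 1 or 2, whose meaning the sources used here do not give. At 8 wk 3 of the 5 WKY libraries and none of the 5 SHR libraries carry 2, and with this number as a term only Ttr was called (−7.45, adjusted p = 0.025). At 10 wk edgeR called no member, against 4.44% of all genes, and Ttr came nearest at −5.98 ± 1.84 (adjusted p = 0.053), the 1 member with an unadjusted p under 0.05. DESeq2 called Ttr and limma called Kl at that age.

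At 12 wk 5 members were lower in SHRs, against 3.1% of all genes called and 2.09% called lower. The fold changes were −12.60 ± 1.99 for Ttr (adjusted p = 2.9e-05), −7.47 ± 1.39 for Sostdc1 (adjusted p = 4.1e-04), −6.16 ± 1.23 for Kcnj13 (adjusted p = 0.0012), −3.89 ± 0.80 for Folr1 (adjusted p = 0.0015) and −3.58 ± 0.77 for Clic6 (adjusted p = 0.0026). All SHR levels of Folr1 and Sostdc1 lay below all WKY levels at this age. So did those of 1.95% of all 32883 genes, including those without counts. Of the 3 WKY rats at 12 wk, 2 are among the 5. Leaving out replicate 2 alone removed every call but that of Ttr, with −4.65 for Sostdc1 (adjusted p = 0.15), −3.99 for Kcnj13 (adjusted p = 0.15), −2.72 for Folr1 (adjusted p = 0.13) and −2.15 for Clic6 (adjusted p = 0.31). Without all 5 rats edgeR called no member, 2 having an unadjusted p under 0.05 (Enpp2 and Folr1), at a background of 0.848%, and Ttr stood at −0.33 ± 1.98, Folr1 at −2.55 ± 0.82 (adjusted p = 0.21), Clic6 at −0.25, Sostdc1 at −1.31 and Kcnj13 at 1.68. With all rats limma kept the calls of Sostdc1, Folr1 and Clic6 at 12 wk and lost those of Ttr (−9.26, adjusted p = 0.38) and Kcnj13 (−4.81, adjusted p = 0.076). The comparison without the 5 rats has 1 WKY library, whose spread is assumed to be that of the other groups. At 16 and 24 wk edgeR called no member, against 1.73% and 2.46% of all genes, and 0 members had an unadjusted p under 0.05 or were called by DESeq2 or limma.

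Averaged over the 5 ages, 3 members were lower in SHRs in the NTS, against 5.51% of all genes called lower. They were Ttr at −6.73 ± 1.24 (adjusted p = 9.5e-05), Clic6 at −1.66 ± 0.37 (adjusted p = 0.0013) and Folr1 at −1.28 ± 0.38 (adjusted p = 0.020). For Folr1 the call was lost without replicate 5 at 8 wk, replicate 2 at 12 wk or replicate 3 at 24 wk of WKY, with adjusted p-values of 0.064, 0.074 and 0.062. By limma Clic6 alone of the 3 was called over ages, with Ttr at −5.18 (adjusted p = 0.13) and Folr1 at −0.90 (adjusted p = 0.099). With the 5 rats left out Ttr was at −1.69 ± 0.66 (adjusted p = 0.13), Clic6 at −0.30 ± 0.27 and Folr1 at −0.31 ± 0.33, and 1 member was called, Kl, which was higher in SHRs by 1.13 ± 0.31 (adjusted p = 0.015) at a background of 8.03%. With all rats Kl was at 0.28 ± 0.28 (adjusted p = 0.69). The 5 rats were picked for high Ttr and all are WKY, so a smaller Ttr difference without them follows from that choice. They also hold the 2 highest NTS levels of Kl, so the call of Kl without them is tied to the same choice. Neither change was read as a result about the strains.

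**Figure D3:**
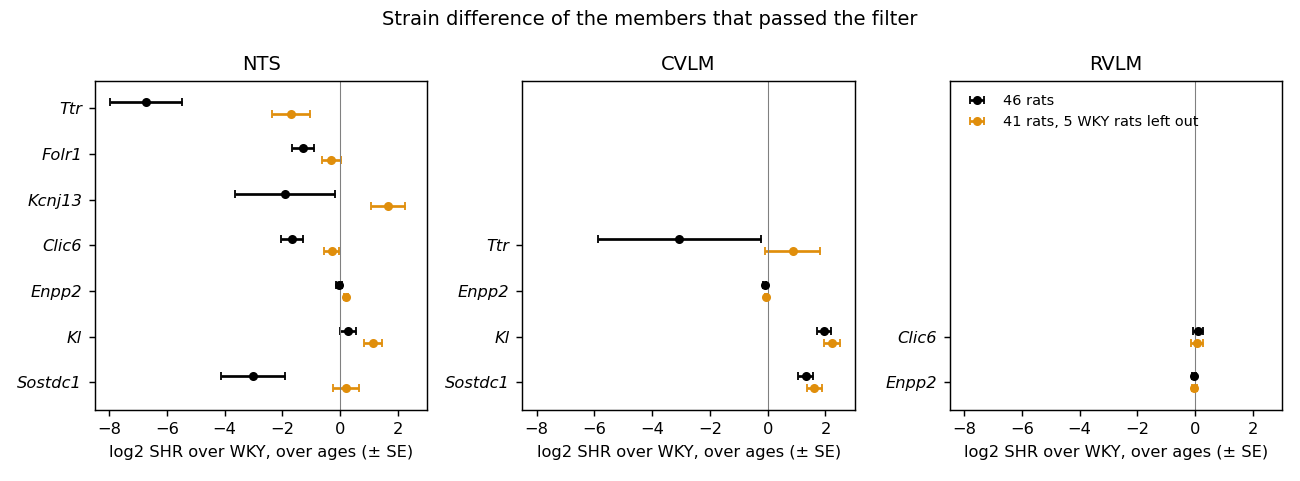
Log2 fold change of SHR over WKY over ages with its standard error for the members that passed the expression filter, by region, with all 46 rats in black and without the 5 named WKY rats in orange. In the NTS, Ttr moves from −6.73 to −1.69 and Clic6 from −1.66 to −0.30, whereas CVLM values of Kl stay at 1.93 and 2.22 and Sostdc1 at 1.32 and 1.62.

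Across ages, members were called in WKY rats of the NTS, but age and the number in the library name go together, since all 10 wk libraries carry 2 and all WKY libraries of 12 to 24 wk carry 1. Tested together over the 4 later ages against 8 wk, Ttr (adjusted p = 0.0022), Kcnj13 (adjusted p = 0.0027), Sostdc1 (adjusted p = 0.0046), Folr1 (adjusted p = 0.015) and Clic6 (adjusted p = 0.027) were called, against 12.5% of all genes. With the number as a term the genes called across ages in WKY went from 1726 to 6, and the members called were Ttr (adjusted p = 0.032) and Kcnj13 (adjusted p = 0.041). Without the 5 rats only Enpp2 was called (adjusted p = 0.046), at a background of 5.92%. Leaving out replicate 2 at 12 wk alone removed the calls of Folr1 (adjusted p = 0.18) and Clic6 (adjusted p = 0.097), and that of Clic6 was also lost without replicate 1 at 16 wk, replicate 1 at 24 wk or replicate 3 at 24 wk, with adjusted p-values of 0.051 to 0.054. Across ages in SHRs edgeR called no member in the NTS, against 18.7% of all genes, with 1 at an unadjusted p under 0.05 (Enpp2), which limma also called. DESeq2 was run for the differences between strains only, not across ages. A change of the strain difference with age was called for no member by edgeR or limma, against 0.0145% of all genes by edgeR, and 4 members had an unadjusted p under 0.05.

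The CVLM punches of the same 5 rats held the 5 highest levels of Ttr in that region. Replicate 2 at 12 wk was at 185 CPM, replicate 2 at 8 wk at 32.0, replicate 4 at 10 wk at 19.0, replicate 5 at 8 wk at 12.9 and replicate 3 at 12 wk at 5.13 CPM, and the next library, an SHR of 24 wk, at 2.03 CPM. The levels were far below those in the NTS of the same rats, and their order among the 5 was different. Ttr was lower in SHRs at 12 wk by 8.66 ± 1.65 on the log2 scale (adjusted p = 6.2e-04), and edgeR called no other member at that age, against 2.62% of all genes. DESeq2 called Kl there as well, and limma Kl and Sostdc1. The difference of Ttr was 0.40 ± 2.90 without the 5 rats, and without replicate 2 of WKY alone it was −4.03 (adjusted p = 0.27). Outside the 5 rats no CVLM library exceeded 2.03 CPM of Ttr. Its call at 12 wk thus describes the high WKY libraries and was not read as evidence on the strains. In the RVLM the 5 rats, in the order of their NTS levels, ranked 2, 12, 14, 1 and 10 of 46 for Ttr, with 2.17, 0.546, 0.442, 2.98 and 0.821 CPM, and the highest library of another rat held 1.82 CPM. Replicate 2 at 12 wk and replicate 2 at 8 wk of WKY were thus the ones of the 5 above all other rats there.

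Kl was higher in SHRs in the ventrolateral medulla, by the test over ages for the CVLM and, for the RVLM, in a fit without the expression filter. In the CVLM, WKY libraries held 1.57, 1.33, 0.443, 0.807 and 0.476 CPM at 8 wk and 0.208, 0.269, 0.189 and 0.978 at 10 wk. SHR libraries held 1.14, 4.09, 1.68, 3.81 and 2.28 CPM at 8 wk and 1.75, 2.27, 1.34, 1.71 and 1.25 at 10 wk. The strains overlapped at 8 wk, at which 1 SHR library lay below 2 WKY libraries, but not at 10 wk. At 12, 16 and 24 wk the WKY levels were 0.431, 1.34 and 0.125, then 0.890, 0.507 and 0.210, then 0.812, 0.112 and 0.245 CPM. SHR libraries had a lowest, median and highest level of 1.27, 2.72 and 3.26 CPM at 12 wk, 1.68, 2.03 and 3.84 CPM at 16 wk and 1.08, 1.55 and 3.63 CPM at 24 wk. The strains did not overlap at 10, 16 and 24 wk. This was so, with SHRs higher, for 1.34%, 1.3% and 1.9% of all 32883 genes, including those without counts.

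The log2 fold change of Kl in the CVLM was 1.5 ± 0.45 at 8 wk (adjusted p = 0.030), 1.99 ± 0.51 at 10 wk (adjusted p = 0.014), 1.88 ± 0.55 at 12 wk (adjusted p = 0.057), 2.05 ± 0.57 at 16 wk (adjusted p = 0.037) and 2.24 ± 0.62 at 24 wk (adjusted p = 0.020). Over ages it was 1.93 ± 0.24 (adjusted p = 3.7e-08) and without the 5 rats 2.22 ± 0.27 (adjusted p = 7.4e-08). The share of all genes called higher in SHRs was 3.17%, 1.48%, 1.14% and 2.21% at 8, 10, 16 and 24 wk and 5.28% over ages. Kl reached 1.57 CPM in WKY and 4.09 CPM in SHR in the CVLM, where Clic6, at up to 1.91 CPM, did not pass the filter. Kl may thus pass through SHR libraries alone, and its calls were not read against these shares. With the replicate number as a block the value at 12 wk was 2.07 ± 0.54 (adjusted p = 0.026). With the number in the library name as a term the call at 8 wk was lost (0.93 ± 0.46, adjusted p = 0.49), and over ages the value was 1.88 ± 0.22 (adjusted p = 1.1e-08). Leaving out 1 rat at a time kept the value over ages between 1.84 and 2.17 and never lost the call. At single ages the sign was kept, but the call was lost without any of WKY replicates 3, 4 and 5 or SHR replicates 2 and 4 at 8 wk, WKY replicates 1, 2 and 3 at 10 wk, WKY replicates 2 and 3 or SHR replicates 2 and 4 at 16 wk, and WKY replicates 2 and 3 or SHR replicate 3 at 24 wk, with adjusted p-values up to 0.32.

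In the RVLM the strains did not overlap for Kl at any age. WKY libraries held 0, 0, 0.132, 0.274 and 0 CPM at 8 wk and 0, 0, 0.128 and 0.137 at 10 wk. SHR libraries held 0.589, 1.69, 1.25, 1.35 and 0.555 CPM at 8 wk and 0.495, 1.26, 1.2, 0.976 and 1.07 at 10 wk. Every SHR of the 28 had counts of Kl in the RVLM, whereas 6 of 18 WKY rats had none. At the later ages WKY libraries reached at most 0.451, 0.315 and 0.513 CPM at 12, 16 and 24 wk, and SHR libraries started at 1.00, 0.905 and 0.606 CPM. Over all 32883 genes, including those without counts, SHR lay above WKY without overlap in 1.29%, 1.31%, 0.906%, 1.04% and 1.67% at the 5 ages in turn.

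Kl did not reach the expression filter in the RVLM, and its tests come from the fit without that filter. They gave 3.49 ± 0.61 at 8 wk (adjusted p = 1.3e-04), 3.71 ± 0.64 at 10 wk (adjusted p = 1.2e-04) and 2.64 ± 0.65 at 16 wk (adjusted p = 0.022), against 1.86%, 0.681% and 0.485% of all genes called higher in SHRs. At 12 wk the value was 1.94 (adjusted p = 0.19) and at 24 wk 1.97 (adjusted p = 0.16). Over ages it was 2.75 ± 0.28 (adjusted p = 1.7e-10), at a background of 3.77%. The counts behind these values were few, with 5 counts in the WKY libraries and 55 in the SHR libraries at 8 wk, and 4 and 74 at 10 wk. The ratio of the summed levels was 12.5 (95% counting interval 5.04 to 39.9) at 8 wk and 15.2 (5.69 to 57.2) at 10 wk. At the later ages the ratio was smaller, with intervals that overlapped these. It was 3.95 (1.98 to 8.98) at 12 wk, 6.598 (2.90 to 18.5) at 16 wk and 3.80 (1.75 to 9.81) at 24 wk.

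**Figure D4:**
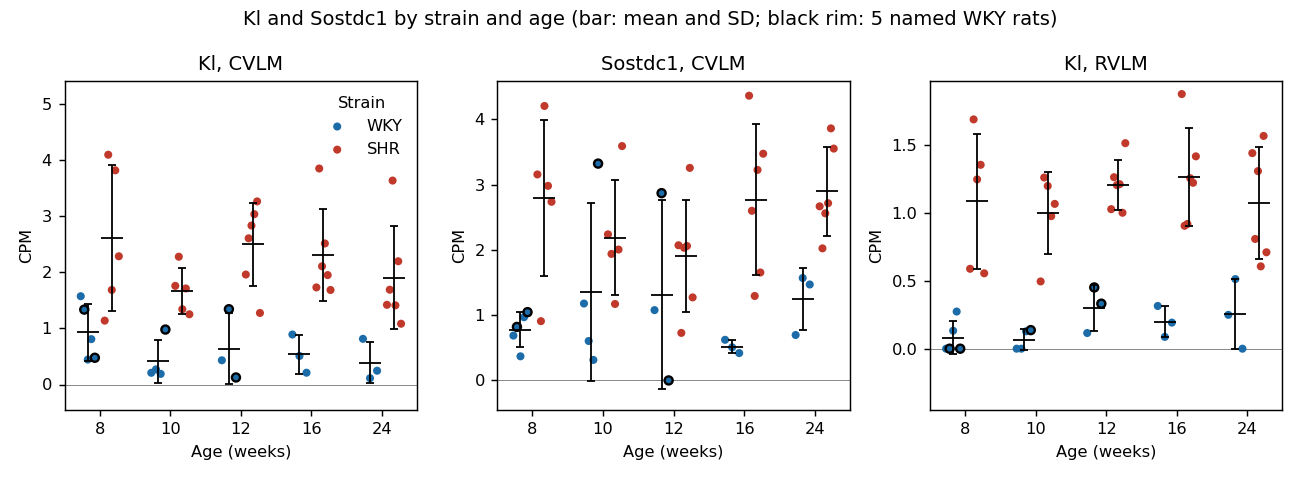
Kl in the CVLM, Sostdc1 in the CVLM and Kl in the RVLM in CPM by age in weeks, WKY in blue and SHR in red, each point 1 library, bars the mean and standard deviation, and the 5 named WKY rats rimmed in black. SHR points of Kl lie above all WKY points at every age in the RVLM, where WKY levels end at 0.513 CPM.

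Sostdc1 was higher in SHRs in the CVLM, the opposite direction to its difference at 8 and 12 wk in the NTS. WKY libraries held 0.687, 0.820, 0.370, 0.969 and 1.05 CPM at 8 wk and 1.18, 0.604, 0.314 and 3.32 at 10 wk. SHR libraries held 3.16, 0.909, 4.21, 2.98 and 2.74 CPM at 8 wk and 2.24, 1.94, 1.17, 2.01 and 3.59 at 10 wk. Replicate 4 of WKY at 10 wk, 1 of the 5 rats, was thus as high as SHRs, and so was replicate 2 at 12 wk, where WKY libraries held 1.08, 2.87 and 0 CPM. At 16 and 24 wk WKY libraries held 0.623, 0.507 and 0.419, then 0.696, 1.57 and 1.47 CPM, and SHR libraries started at 1.29 and 2.02 CPM, so that the strains did not overlap. The fold change was 1.83 ± 0.52 at 8 wk (adjusted p = 0.022) and 2.41 ± 0.65 at 16 wk (adjusted p = 0.032). It missed the threshold at 10 wk (0.69 ± 0.50), 12 wk (0.46 ± 0.57) and 24 wk (1.21 ± 0.58). Over ages it was 1.32 ± 0.25 (adjusted p = 1.4e-04), and 1.62 ± 0.25 (adjusted p = 5.0e-06) without the 5 rats. At 8 wk the call was lost with the number in the library name as a term (1.81 ± 0.60, adjusted p = 0.12) and without WKY replicate 3 or SHR replicate 3, with adjusted p-values of 0.078 and 0.067, and at 16 wk without any 1 of the 3 WKY rats or SHR replicates 1, 4 and 6, with values of 0.052 to 0.18.

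Enpp2 was called between the strains in no region and at no age. Its medians in WKY and SHR were 230 and 260 CPM for the NTS, 338 and 309 for the CVLM and 258 and 255 for the RVLM, and the strains overlapped at all ages. Over ages the log2 difference was −0.03 ± 0.11, −0.10 ± 0.05 and −0.04 ± 0.07 in the same order. Enpp2 was called across ages in the CVLM of both strains. WKY libraries ranged from 361 to 458 CPM at 8 wk and from 242 to 338 CPM at 16 wk (adjusted p = 8.4e-04 over ages), and SHR libraries from 331 to 400 and from 250 to 292 CPM (adjusted p = 0.0065). Summed oligodendrocyte markers in the CVLM had medians of 71009 CPM at 8 wk and 46112 CPM at 16 wk in WKY. In SHR these medians were 59593 and 44762 CPM. Whether oligodendrocytes have a part in the Enpp2 difference was not tested. With the number in the library name as a term, Enpp2 was called in SHR (adjusted p = 0.019) and not in WKY (adjusted p = 0.071), and the genes called across ages in WKY went from 2970 to 54. In WKY, Ttr was the other member called over ages in the CVLM (adjusted p = 0.0021, 0.39 without the 5 rats and 0.059 with the number as a term). That call of Ttr also describes the 5 named rats and was not read as evidence on age. Among all genes, 22.2% were called across ages in WKY and 20% in SHR in the CVLM. A change of the strain difference with age was called by edgeR for 0.0224% of genes in the CVLM and for no member, 1 having an unadjusted p under 0.05 (Ttr), and limma called 0.

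Clic6 and Enpp2 were the members that passed the filter in the RVLM, and edgeR called neither there. Between the strains 0 members had an unadjusted p under 0.05 and DESeq2 and limma called 0. Clic6 had an unadjusted p under 0.05 across ages in WKY, and limma called both members across ages in SHR. Clic6 had a lowest, median and highest level of 1.54, 4.23 and 7.73 CPM in WKY and 1.81, 4.18 and 7.83 CPM in SHR, and its difference over ages was 0.10 ± 0.18. The shares of all genes called in the RVLM were 9.78%, 2.3%, 1.7%, 1.65% and 2.24% at the 5 ages in turn, 10.8% over ages, 6.79% across ages in WKY, 14.1% across ages in SHR and 0.00746% for a strain difference that changes with age. Folr1, Kcnj13 and Sostdc1 were close to 0 in the RVLM, with strain medians of at most 0.141 CPM. The highest level of these 3 genes in the RVLM was 10.2 CPM of Kcnj13 in replicate 6 of SHR at 12 wk. Replicate 3 of SHR at 16 wk held 2.45 CPM of Kcnj13, and replicate 4 of SHR at 10 wk held the highest level of Folr1, 0.976 CPM. Otx2 had no count in any of the 18 WKY libraries of the CVLM or of the RVLM.

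Levels between regions of the same rat were compared with the rat as a block over 14043 genes. Folr1 was the member that set the NTS apart in both strains. Its NTS level exceeded that of the CVLM by 4.22 ± 0.40 on the log2 scale in WKY (adjusted p = 3.4e-16) and by 4.16 ± 0.38 in SHR (adjusted p = 2.1e-17), and without the 5 rats by 4.95 ± 0.58 and 4.16 ± 0.37. Against the RVLM it was higher by 5.35 ± 0.46 and 3.60 ± 0.35. Clic6 was highest in the RVLM, with a difference between CVLM and RVLM of −3.08 ± 0.33 in WKY and −3.18 ± 0.26 in SHR. Sostdc1 was higher in the CVLM than in the RVLM by 4.16 ± 0.67 in WKY and 4.58 ± 0.41 in SHR, and in SHR lower in the NTS than in the CVLM by 4.18 ± 0.39. In WKY that last difference was −0.10 ± 0.36 with all rats and −2.75 ± 0.43 without the 5.

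Ttr gave the widest contrast between the strains in these comparisons. In SHR it did not differ detectably between any pair of regions, with 0.01 ± 0.76 between NTS and CVLM, 0.05 ± 0.75 between NTS and RVLM and 0.03 ± 0.77 between CVLM and RVLM. Its SHR medians in NTS, CVLM and RVLM were 0.164, 0.033 and 0.092 CPM, with no count in 9, 14 and 10 of 28 libraries. Regions of SHR thus cannot be ranked for Ttr at this depth. In WKY the same differences were 4.02 ± 0.54, 7.50 ± 0.75 and 3.48 ± 0.77, and without the 5 rats 2.61 ± 0.68, 1.90 ± 0.63 and −0.70 ± 0.78. Averaged over the strains, 7 members were called between NTS and CVLM, 7 between NTS and RVLM and 5 between CVLM and RVLM, while 65.9%, 73.5% and 54.5% of all genes were called. When the 5 rats were left out, 5, 5 and 4 members were called.

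**Figure D5:**
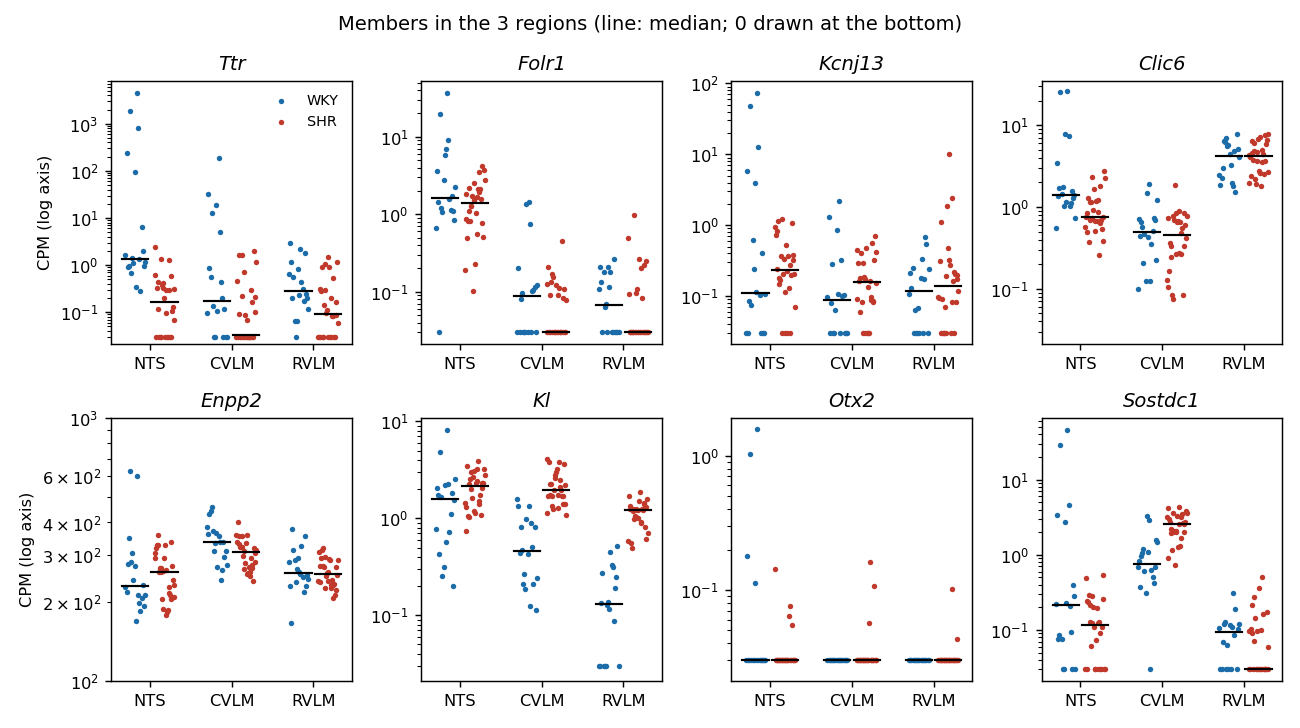
The 8 genes in the 3 regions in CPM on log axes, WKY in blue and SHR in red, with the median of each strain as a line and libraries at 0 at the bottom edge. Folr1 is higher in the NTS, Clic6 in the RVLM and Sostdc1 in the CVLM than in the other regions in SHR, and the SHR medians of Kl exceed those of WKY in all 3 regions.

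The strain difference itself was tested between regions. It was lower in the NTS than in the CVLM for Sostdc1 (−4.08 ± 0.65, adjusted p = 1.2e-05), Ttr (−4.01 ± 0.98, adjusted p = 0.033) and Kl (−1.42 ± 0.33, adjusted p = 0.017), against 0.328% of all genes called. It was lower in the NTS than in the RVLM for Ttr (−7.45 ± 1.15, adjusted p = 5.1e-06), Kl (−2.42 ± 0.39, adjusted p = 1.0e-05), Kcnj13 (−3.90 ± 0.90, adjusted p = 0.0051), Clic6 (−1.49 ± 0.38, adjusted p = 0.015) and Sostdc1 (−3.66 ± 0.97, adjusted p = 0.022), against 1.93%. Genes entered this fit by passing the filter in at least 1 region, and Ttr, Kcnj13 and Sostdc1 pass in the NTS through the high WKY libraries. Their calls here take in those libraries and were not read as evidence on the strains. Between CVLM and RVLM edgeR called no member, against 0.385%, 3 had an unadjusted p under 0.05 (Kl, Ttr and Folr1) and limma called 0. Without the 5 rats no member was called by edgeR between NTS and CVLM, where 4 had an unadjusted p under 0.05, and Kl alone was called between NTS and RVLM, at −1.75 ± 0.42 (adjusted p = 0.020).

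Whether the members rose and fell together was asked within SHRs and in the 41 rats without the 5, because the WKY rats fall into separate clusters of Ttr. Among the 28 SHRs, Ttr had no count in 9 NTS libraries, 14 CVLM libraries and 10 RVLM libraries, so that weak correlations in SHRs cannot be read at this depth. Over the 28 SHRs none of the 21 correlations of a member with Ttr, 7 in each region, passed a permutation test after adjustment. The strongest in the NTS was that of Otx2, with Pearson's r = 0.57 (permutation p = 0.00674, adjusted p = 0.14) and Spearman's rho = 0.26 (permutation p = 0.19, adjusted p = 0.67), and r was 0.31 without the 2 libraries farthest from the median of Ttr. For Kcnj13 and Sostdc1, which ranked the 5 WKY libraries as Ttr did, r was 0.25 and −0.15, with adjusted permutation p-values of 0.59 and 0.66. Over the 41 rats Kl was lower where Ttr was higher in the NTS, with Spearman's rho = −0.50 (permutation p = 0.0013, adjusted p = 0.027) and Pearson's r = −0.46 (permutation p = 0.00268, adjusted p = 0.056), and r was −0.59 without the 2 libraries farthest from the median of Ttr. These rats include both strains, and the part of strain in this correlation was not tested. Within the 28 SHRs rho was −0.32 (permutation p = 0.096, adjusted p = 0.67). The other 20 correlations over the 41 rats did not pass.

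With all 46 rats, other genes of choroid plexus epithelium were also called lower in SHRs in the NTS. From a list of 40 such genes, 39 were in the tables and 32 passed the filter in the NTS. Of these 4 were lower in SHRs at 8 wk (Kcne2, Mfrp, Cldn2 and Ace) and 10 were lower at 12 wk, with none higher at either age, against 3.21% and 2.09% of all genes called lower, and the median log2 difference at 12 wk was −0.90 against 0.03 over all genes. Over ages 5 were lower, against 5.51% of all genes, led by Kcne2, a potassium channel subunit of the epithelium, at −1.40 ± 0.19 (adjusted p = 2.8e-07), Steap1 at −1.27 ± 0.29 (adjusted p = 0.0016), Ace at −0.31 ± 0.09 (adjusted p = 0.017) and Calml4 at −0.95 ± 0.28 (adjusted p = 0.018). Without the 5 rats none was called at 12 wk, and over ages Kcne2 was lower and Car12 higher. The summed level of the list ranked the 5 NTS libraries 1, 2, 5, 13 and 3 of 46, in the order of Ttr. Mfrp and Cldn2 were higher in each of these 5 WKY libraries than in any SHR library. The counts at 8 and 12 wk thus in part describe these libraries and were not read as evidence on the strains.

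Markers of ciliated ependyma, the cells that line the ventricles, were lower in SHRs at 12 wk in the NTS. Of 18 listed, 16 were in the tables and 14 passed, and 9 of these were lower at that age, against 2.09% of all genes, and 1 without the 5 rats. Their summed level ranked the 5 libraries 1, 14, 4, 19 and 3 of 46 in the order of Ttr, so that 2 of the 5 were not among the highest. Over ages Ccdc153 was lower by 1.77 ± 0.31 on the log2 scale (adjusted p = 4.1e-05), and Dynlrb2 and Dnai1 were lower by 0.80 ± 0.25 and 0.27 ± 0.09. Of the markers of leptomeninges, endothelium and dorsal vagal neurons that passed (12, 8 and 9), edgeR called none at 12 wk, where 4, 1 and 0 had an unadjusted p under 0.05. Over ages it called endothelial Vwf, lower by 0.49 ± 0.09 (adjusted p = 1.2e-04), and none of the other two lists, with 1 and 4 at an unadjusted p under 0.05. Of 10 oligodendrocyte markers, all of which passed, 4 were called over ages, against 11.2% of all genes, Mobp lower by 0.72 ± 0.08 and Cldn11, Mal and Opalin higher by 0.79 ± 0.11, 0.35 ± 0.08 and 0.34 ± 0.08, and all 4 were also called without the 5 rats. The part of choroid plexus or ependymal tissue in the punches in these results was not tested. Among 19 partners of the members, which include receptors and ligands of their products, 16 passed and 3 were higher in SHRs over ages in the NTS, against 5.66% of all genes called higher, the SOSTDC1 receptor Lrp4 by 0.93 ± 0.10 (adjusted p = 2.4e-09), the endocytic receptor Lrp2 by 0.61 ± 0.13 (adjusted p = 5.8e-04) and the lysophosphatidic acid receptor Lpar6 by 0.33 ± 0.09 (adjusted p = 0.013). Without the 5 rats Lrp4 and Lrp2 were called, at 0.97 ± 0.13 and 0.66 ± 0.14, and Lpar6 was at 0.25 ± 0.11 (adjusted p = 0.18). Of 18 genes of ion and water transport into cerebrospinal fluid, all of which passed, 2 were called over ages, Kcna1 higher and Car3 lower in SHRs, a share like the 11.2% of all genes called.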

How the data were processed

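RNA-seq of NTS, CVLM and RVLM punches was analysed in 46 female rats, with groups taken from the labels. The authors aligned reads with STAR to rn6, counted genes with RSEM and deposited 1 table of expected counts per region. A batch correction (ComBat_seq) is described for the study. The labels name the tables raw counts, and no batch correction was made here. In them 5.02%, 4.95% and 4.88% of values (NTS, CVLM, RVLM) were not whole, and these were rounded. The columns of other series numbered 0. Totals per library were 5904581 to 17889417 counts, and intervals and limits cover counting error only.

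Genes were kept in a region where the largest rlog value was at least 3.5. CPM used TMM-scaled library sizes, with a pseudocount of 0.5 CPM for log2 values in correlations. The main test was the quasi-likelihood test of edgeR 4.0.16 (R 4.3.3) on 10 groups of strain and age per region, with Benjamini-Hochberg adjustment over all genes that passed, called at 0.05. Contrasts were SHR against WKY at each age and over ages, the interaction with age and the ages within each strain. Regions were compared with the rat as a block. Correlations used 100000 permutations (scipy 1.17.1). Where nothing says that libraries of a group came from separate preparations, p-values measure the spread between these rats. Within groups, 270 pairs of libraries were compared, and none differed by as little as sampling noise (lowest chi-square per gene 4.81). Alternatives were limma 3.58.1, DESeq2 1.42.0, RLE size factors, no filter, stricter calls, each age alone, a replicate block, the number in the library name, leaving out each rat and leaving out the 2 libraries with conflicting ages. Leaving out the 5 rats with Ttr above 90 CPM in the NTS, SHRs alone and Pearson's r were added after the data were seen. The tests were checked on data drawn from the real means.

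The named genes are the 8 members, at most 4 of each other list with the lowest p over ages in the NTS, and the 10 genes most like Ttr in rank over 46 libraries of a region. Other names follow counts of 5 or fewer or were chosen after their values were seen. The members and lists were chosen with earlier results of these data known. Promoters came from RefSeq (GRCr8), whose coordinates were not joined to those of the count tables.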

Additional observations from a re-analysis of the deposited data

Results flagged for a closer look

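Within a group of 4 to 10 libraries, the gap of the highest or lowest library to its neighbour was compared with Dixon's 95% critical value for the members that passed the filter. Of 91 such groups, 9 had a library that stood apart. This count was not read against a chance share. Ttr, Kcnj13 and Sostdc1 pass the filter in the NTS through high libraries, and in some groups most libraries are at 0. In WKY at 10 wk it was replicate 4, 1 of the 5 rats named above, in 4 cases: with 93.7 CPM of Ttr and 2.70 CPM of Sostdc1 in the NTS, and with 19.0 CPM of Ttr and 0.978 CPM of Kl in the CVLM. In SHRs the levels were low for Ttr, with 1.28 CPM in replicate 4 at 16 wk in the NTS and 1.67 CPM in replicate 3 at 10 wk, 0.728 CPM in replicate 2 at 12 wk and 0.292 CPM in replicate 5 at 16 wk in the CVLM. Replicate 1 of SHR at 10 wk held 329 CPM of Enpp2 in the NTS.

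The strain difference of a member (log2 of SHR over WKY) differed between regions by edgeR's test of the difference itself in 8 cases. From NTS to CVLM it differed by −4.08 for Sostdc1, −4.01 for Ttr and −1.42 for Kl, and from NTS to RVLM by −7.45 for Ttr, −3.90 for Kcnj13, −3.66 for Sostdc1, −2.42 for Kl and −1.49 for Clic6. The cases of Ttr, Kcnj13 and Sostdc1 take in the high WKY libraries of the NTS and were not read as evidence on the strains. Without the 5 rats, the difference of Kl between NTS and RVLM was the 1 case still called, at −1.75 (adjusted p = 0.020).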

How the results depend on the processing

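Leaving out the 5 rats with high Ttr changed the results most. These rats hold the 5 highest NTS levels of Ttr, Kcnj13 and Sostdc1, so changes of these genes without them are tied to that choice. In the NTS the members called by age went from 9 to 1, those over ages from 3 to 1, those across ages in WKY from 5 to 1 and those across ages in SHR from 0 to 1. In the CVLM those across ages in WKY went from 2 to 1. Between NTS and CVLM the members with a differing strain difference went from 3 to 0, and between NTS and RVLM from 5 to 1. Signs turned for Sostdc1 (0.64) and Kcnj13 (4.27) at 8 wk and Kcnj13 (1.68) at 12 wk in the NTS, for Ttr (0.40) at 12 wk in the CVLM, for Kcnj13 (−0.24) between NTS and RVLM and Ttr (−0.38) between CVLM and RVLM, and for the strain difference of Sostdc1 (0.34) and Kcnj13 (0.052) between NTS and RVLM. Limma gave 4 by age, 1 over ages, 3 across ages in WKY and 1 across ages in SHR in the NTS, 2 across ages in SHR in the RVLM and 2 for the strain difference between NTS and RVLM. Its value for Kcnj13 at 8 wk was 0.95, and Ttr was not called at 12 wk (−9.26, adjusted p = 0.38) or over ages (−5.18, adjusted p = 0.13). Each age fitted alone gave 5 by age in the NTS and 4 in the CVLM, where all ages gave 7. Calls at adjusted p of at most 0.01 and a log2 change of at least 1 numbered 3 across ages in WKY in the NTS, 1 by age in the CVLM, and 1 and 3 for the strain difference between NTS and CVLM or RVLM. No filter gave 3 by age, 1 over ages and 1 across ages in SHR in the RVLM, where the filter left 0. Without the 2 libraries of conflicting age the strain difference gave 1 and 2. The cause of these changes was not tested. Leaving out each rat in turn gave 6 to 11 by age, 2 to 4 over ages, 4 to 6 across ages in WKY and 0 to 1 across ages in SHR in the NTS, and 5 to 9 by age in the CVLM. By rank, 0 members went with Ttr in the NTS and CVLM over 46 rats, 1 and 1 on plain CPM and 5 and 3 on deviations from group means, counts that take in both clusters of Ttr levels and only positive correlations. Without the 5 rats 0 members went with Ttr, and Kl in the NTS went against it (rho = −0.50, adjusted permutation p = 0.027). Of the 10 genes most like Ttr in the NTS, plain CPM shared 6, the fit without the 5 rats 6, and deviations, SHRs alone and Pearson's r 0 each. In the CVLM deviations shared 0, SHRs alone 1, the fit without the 5 rats 3 and Pearson's r 3, and in the RVLM deviations and SHRs alone shared 0 and the fit without the 5 rats 5. Ttr between regions went from 2 pairs to 1 on plain CPM and to 0 in SHRs alone and without the 5 rats. The labels do not say that a replicate number is shared between the strains. Over 54 pairs with 1 number the correlation ran from −0.33 to 0.55, and in 22 of 54 a library was closest to its own number. Every pair was above 0.1 in 4 of 15 comparisons of the strains (NTS at 12 and 24 wk, CVLM at 10 and 12 wk), and in these the block added the call of Kl in the CVLM at 12 wk and changed no other. Elsewhere it lost Sostdc1 and Kcnj13 at 8 wk in the NTS and Sostdc1 at 16 wk in the CVLM. With the replicate block 7 members were called by age and 4 over ages in the NTS, and with the number in the library name as a term 2 across ages in WKY in the NTS and 0 in the CVLM. Members with under 3 counts in a library cannot be ranked at this depth.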

Other observations

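By Spearman's rho over the 46 libraries of a region, the genes most like Ttr in the NTS were Ube3d (rho = 0.72), RT1-A2 (0.72), Cln3 (0.71), Polr3k (0.70), Syt13 (0.69), Eif3c, AC117889.1, RT1-CE7, Serhl2 and Ndufa10l1, and none of the 10 was in a list of choroid plexus or ependymal genes. Likeness by rank gave the same weight to the 41 low libraries as to the 5 high ones, and the libraries share strain and depth. In the CVLM the genes most like Ttr were led by Stard13 (rho = 0.64) and in the RVLM by Ccdc181 (rho = 0.61), followed there by Rtp4, Isg15 and Oas1a, which are known as interferon-induced genes.

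With Pearson's r, a measure added after the values were seen, the 10 genes most like Ttr in the NTS were different ones, and 6 of them were in the choroid plexus list (Mfrp, Cldn2, Kcne2, F5, Abca4 and Steap1). Mfrp stood at 51.4, 26.4, 8.75, 5.65 and 5.34 CPM in the 5 libraries in the order of Ttr, and at no more than 0.916 CPM in any SHR library of the NTS. Cldn2, a tight junction protein of the epithelium, stood at 17.2, 16.1, 1.89, 1.70 and 2.53 CPM, against at most 0.755 CPM in SHRs.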
